A study of Mus musculus with 4 samples.

Results

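The T cells of CT26 tumours carried transcripts of Ramp3, Igfbp4 and Trib2 at 90.3 to 489 normalized counts per 1 M reads (normalized CPM), while NK cells of the same tumour model had 0 reads of Ramp3 and at most 21 reads per library of the others. The 3 genes were selected on this contrast between T cells and NK cells, in the same 4 libraries, from a table of 55450 genes, as the highest row for each symbol. Their difference between the cell types is therefore given as a description, with no test. BALB/C mice were injected under the skin with live cells of CT26, a colon carcinoma line of that strain, immune cells of the tumours were enriched on a density gradient, and T cells and natural killer (NK) cells were then isolated by flow sorting. Each cell type had 2 libraries, with pool 1 made from 4 mice and pool 2 from 6 mice. The labels name no engineered allele and no drug for either group, and state neither mouse age nor the sort gate. No source says that the pools were prepared independently beyond the mice they came from, so p-values rest on the spread between pools. The tools used share that spread across genes, so no p-value measures the spread of 1 gene alone. This holds for the main fit and for the fit with the pool as a replicate block, given below. The libraries held 2067728 to 2893240 reads assigned to genes, and 1 read was worth 0.354 to 0.551 normalized CPM. Ribosomal RNA genes took 52.4% of the reads of T pool 1, 42.7% in T pool 2, 36.9% in NK pool 1 and 38.8% in NK pool 2. All 13 T cell identity genes checked were called higher in the T libraries and all 10 NK identity genes higher in the NK libraries (limma, adjusted p under 0.05), as the labels say. Of all genes tested, 1.09% and 1.24% were called in these directions. Some of the identity genes were measured in both cell types, such as Trbc2 at 208 and 171 in NK cells and Klrk1 at 102 and 63.4 in T cells.

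The 3 proteins work at different places in the cell. RAMP3 is a membrane protein with a single transmembrane segment that pairs with the receptor encoded by Calcrl to make a receptor for the peptide adrenomedullin, and with the calcitonin receptor to make a receptor for amylin. IGFBP4 is secreted and binds insulin-like growth factors, mostly keeping them from their receptor until the protease encoded by Pappa cuts it. TRIB2 is a tribbles pseudokinase, a scaffold that brings the ubiquitin ligase COP1 to targets such as the transcription factor C/EBP alpha, and that also binds AKT and MEK kinases. Igfbp4 is often listed among transcripts of naive mouse T cells.

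Ramp3 (ENSMUSG00000041046.7) lies on the plus strand of chromosome 11 at 6658521 to 6677475 (GRCm38), with 4 blocks of exons that sum to 1380 bases. Igfbp4 (ENSMUSG00000017493.12) lies on the plus strand of the same chromosome at 99041244 to 99054392, with 8 exon blocks and 4416 bases. Trib2 (ENSMUSG00000020601.8) occupies chromosome 12 from 15791727 to 15816922 on the minus strand, with 3 exon blocks and 4335 bases. All 3 are protein-coding. The first part of Ramp3 overlaps Gm11978, a pseudogene on the opposite strand, over 101 exonic bases (7.32% of the Ramp3 exon length). Gm11978 had 0 reads in all 4 libraries. Gm5432, a non-coding gene on the opposite strand that starts 81 bases from Trib2, had 2 reads in T pool 2 and 0 in the other libraries, and its annotated exons share no base with those of Trib2. No source used here states whether reads were counted by strand.

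The sequence just before the start of each gene is shown because the 3 genes share their higher level in T cells. The sequences are from the RefSeq promoter table of GRCm38.p6, in which all 3 genes were found, 5′ to 3′ on the strand of the gene, and they end before the first base of the gene in both RefSeq and GENCODE. They cover chr11:6658283-6658520 for Ramp3, chr11:99040994-99041243 for Igfbp4 and chr12:15816923-15817035 for Trib2. Capitals mark the motifs searched for on both strands, which were TATAAA (a core promoter box), GGGCGG (GC box), TGTGGT (RUNX), CTTTGA (TCF/LEF), CCGGAA (ETS) and CACGTG (E-box).
Ramp3: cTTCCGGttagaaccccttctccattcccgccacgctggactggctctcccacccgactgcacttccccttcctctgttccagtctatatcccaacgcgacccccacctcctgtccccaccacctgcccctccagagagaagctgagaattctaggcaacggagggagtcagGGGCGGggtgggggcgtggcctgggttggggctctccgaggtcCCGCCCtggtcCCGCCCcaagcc
Igfbp4: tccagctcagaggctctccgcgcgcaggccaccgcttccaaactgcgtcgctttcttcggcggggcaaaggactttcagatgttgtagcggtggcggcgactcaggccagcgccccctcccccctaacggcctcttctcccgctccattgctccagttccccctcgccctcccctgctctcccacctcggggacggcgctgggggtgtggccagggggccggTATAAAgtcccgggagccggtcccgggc
Trib2: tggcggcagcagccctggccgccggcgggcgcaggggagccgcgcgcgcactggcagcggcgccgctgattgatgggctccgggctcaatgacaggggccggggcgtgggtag

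The promoters of the 3 genes are rich in G and C and share none of the searched motifs as a set. G and C made up 65.2%, 69.2% and 73.6% of the 250 bases before the RefSeq start of Ramp3, Igfbp4 and Trib2, against a median of 52.4% over 32851 such windows. Of the 3, Igfbp4 alone held TATAAA, which begins 28 bases before its start and occurs in 12.4% of all windows. Ramp3 held 3 GC boxes and Trib2 held 2, and 32.7% of all windows hold at least 1. The GC boxes of Trib2 begin 138 and 120 bases before its RefSeq start and reach into or lie inside the gene as GENCODE draws it, so they are not marked in the stretch printed. Ramp3 also held the ETS letters once, which 12.0% of windows do. The RUNX, TCF/LEF and E-box letters were in none of the 3 windows and in 14.0%, 13.8% and 6.02% of all windows. A match of letters is a description and does not show binding.

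Ramp3 was detected in T cells and in neither NK library. It stood at 147 normalized CPM (267 reads) in T pool 1 and 94.3 (266 reads) in T pool 2, a mean of 121 ± 37.3 (SD, n = 2). Both NK libraries had 0 reads, which allows up to 1.22 normalized CPM in NK pool 1 and 1.06 in NK pool 2 at 3 reads per library. Both T values lay far above these limits, in a gene chosen on this contrast. With the same floor per library, the T level of Ramp3 was at least 120-fold higher than the NK level in pool 1 and at least 88.6-fold higher in pool 2. Such limits, and the intervals given below, cover counting error only. In these bulk libraries, fewer cells with a transcript and less transcript per cell cannot be told apart.

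Igfbp4 had the most reads of the 3 in T cells, and the widest ratio between the T pools. It stood at 154 normalized CPM (279 reads) in T pool 1 and 489 (1381 reads) in T pool 2, a mean of 321 ± 237 (SD, n = 2). In NK cells it stood at 8.54 (21 reads) in pool 1 and 2.48 (7 reads) in pool 2, a mean of 5.51 ± 4.29. The high T pool was pool 2, while the high NK pool was pool 1. The ratio of T to NK was therefore 18.0 in pool 1 (exact 95% binomial counting interval 11.5 to 29.5) and 197 in pool 2 (95.4 to 491). Over both pools it was 67.5 (46.5 to 102).

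Trib2 stood at 90.3 normalized CPM (164 reads) in T pool 1 and 171 (483 reads) in T pool 2, a mean of 131 ± 57.2 (SD, n = 2). NK pool 1 had 0 reads, and NK pool 2 had 17 reads, or 6.03 normalized CPM. Pool 2 was the higher of the pools in both cell types. In pool 1 the T level of Trib2 was at least 74.0-fold higher than the NK level, against 3 reads per library, and 28.4-fold higher in pool 2 (counting interval 17.5 to 49.2). Across the genes, the pool with the larger T to NK ratio was thus pool 2 for Igfbp4 and pool 1 for Trib2.

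**Figure D1:**
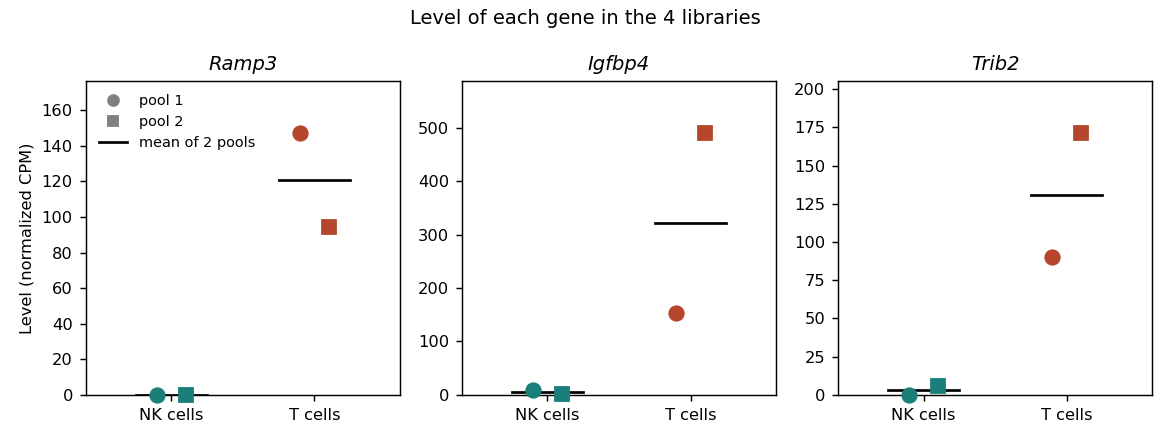
Level of Ramp3, Igfbp4 and Trib2 (vertical axis, normalized CPM, a separate linear scale for each gene) in NK cells and T cells, with circles for pool 1, squares for pool 2 and a line at the mean of the 2 pools. Every T point lies above every NK point, in genes that were chosen on this contrast. T pool 1 is the higher T point for Ramp3 (147 against 94.3), and T pool 2 is the higher one for Igfbp4 (489 against 154) and Trib2 (171 against 90.3).

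**Figure D2:**
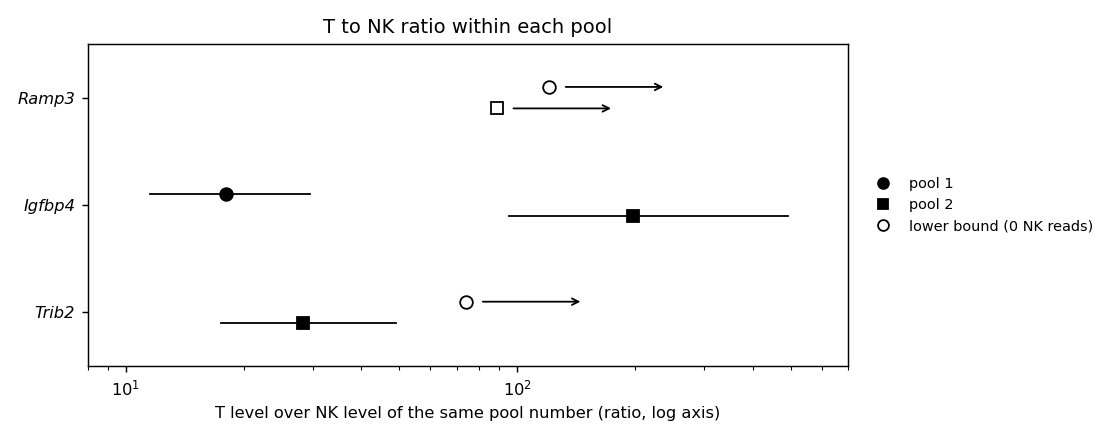
T level divided by the NK level of the same pool number (log axis) for the 3 genes, with exact 95% binomial counting intervals as lines, and open symbols with arrows for lower bounds where the NK library had 0 reads. For Igfbp4 the ratio is 18.0 in pool 1 and 197 in pool 2, with intervals that do not overlap.

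Per length, Trib2 was the lowest of the 3 in both T pools, and the order of the other two differed between pools. Divided by the length of all exons in kilobases, the T level was 87.4 ± 27.0 normalized CPM per kilobase for Ramp3, 72.8 ± 53.8 for Igfbp4 and 30.2 ± 13.2 for Trib2 (SD, n = 2). Ramp3 and Igfbp4 differed by less than their spread between pools. T pool 1 had 107 for Ramp3, 34.8 for Igfbp4 and 20.8 for Trib2, while T pool 2 had 68.3, 111 and 39.5 in the same order of genes. The order within each pool was the same with the length of the longest coding transcript in place of all exons. In NK cells the levels per kilobase were 1.25 ± 0.97 for Igfbp4 and 0.70 ± 0.98 for Trib2, which differed by less than their spread, and 0 for Ramp3.

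Between the T libraries, Igfbp4 and Trib2 were higher in pool 2 and Ramp3 was higher in pool 1, beyond counting error. Each pool is 1 library, so the ratios have no replicate check and no test of the pools was made. The T pool 2 to pool 1 ratio was 3.19 for Igfbp4 (counting interval 2.80 to 3.64), 1.90 for Trib2 (1.58 to 2.28) and 0.641 for Ramp3 (0.539 to 0.763). Of 6760 genes with a T mean of at least 10 normalized CPM, 11.8% were at least 2-fold higher in pool 2 and 9.63% at least 2-fold lower, and the median ratio was 1.05. Igfbp4 was past 2-fold, with 3.70% of these genes at a higher ratio. Trib2, with 13.6% of genes above it, and Ramp3, with 18.4% below it, were within 2-fold. The summed level of the 13 T cell identity genes was 4133 in pool 1 and 3801 in pool 2, a ratio of 0.920. Relative to that sum the ratios were 3.46 for Igfbp4, 2.06 for Trib2 and 0.697 for Ramp3. In NK cells Igfbp4 went the other way, with a pool 2 to pool 1 ratio of 0.291 (counting interval 0.104 to 0.709) on 28 reads in all.

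Genes of naive and central memory T cells stood mostly with Igfbp4 and Trib2 in this ratio, and several genes of activated and regulatory T cells stood on the other side. All 16 listed naive and memory genes had a T mean of at least 10, and 9 of them were at least 2-fold higher in T pool 2 and 0 at least 2-fold lower, against the 11.8% and 9.63% of all genes. They included Ccr7, a chemokine receptor that guides cells into lymph nodes (52.9 in pool 1 and 348 in pool 2, ratio 6.59), S1pr1, the sphingosine 1-phosphate receptor (ratio 4.75), and Tcf7, which encodes TCF-1 (ratio 3.35). Il7r, the interleukin 7 receptor, did not follow them, at 796 in pool 1 and 536 in pool 2. Of 13 activated and regulatory genes with a T mean of at least 10, 2 were at least 2-fold higher in pool 2 and 5 at least 2-fold lower. The lower ones included Tnfrsf4, which encodes OX40 (153 in pool 1 and 25.2 in pool 2), Foxp3, the factor of regulatory T cells (63.9 and 12.0), and the costimulatory receptor gene Icos (436 and 146). The higher ones were Irf4 (13.2 in pool 1 and 29.4 in pool 2, ratio 2.23) and Nr4a1 (49.6 and 109, ratio 2.20). Havcr2 (ratio 1.71) and Tox (1.31) were also higher in pool 2, within 2-fold, so the list did not move as 1 set. Genes of all 3 lists had ratios near the 0.641 of Ramp3, so the ratio does not place Ramp3 with any of them. The inhibitory receptor gene Pdcd1 had 0.699, Il7r and Nsg2 of the naive and memory list had 0.674 and 0.629, and the identity genes Cd3e and Cd6 had 0.720 and 0.586. Of the 13 T cell identity genes 0 passed 2-fold in either direction, with Cd4 at 207 and 117 and Cd8a at 113 and 204 in pools 1 and 2. Some of these pool differences were known when the lists were drawn up, so the counts are not independent evidence.

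**Figure D3:**
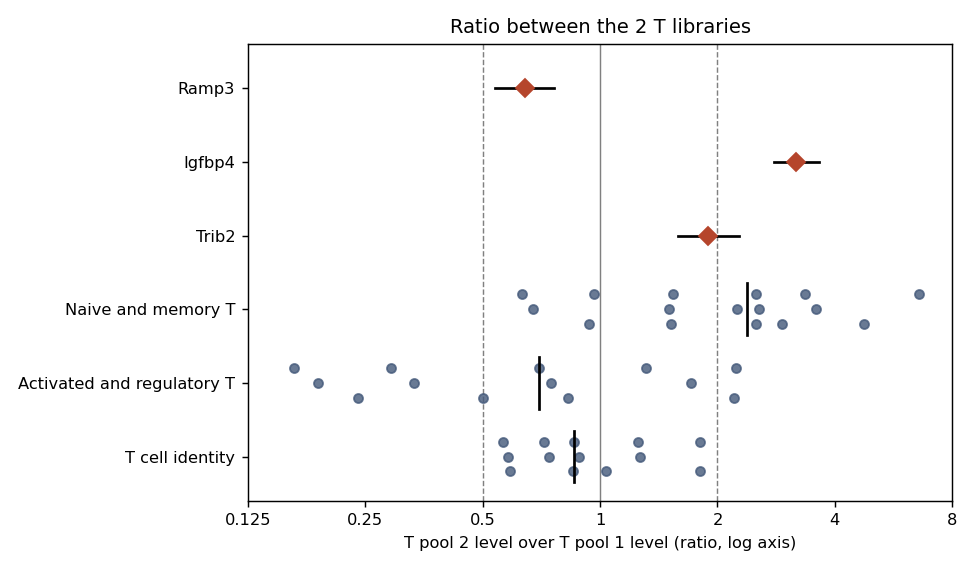
Ratio of the T pool 2 level to the T pool 1 level (log axis), with diamonds and exact 95% counting intervals for the 3 genes, and 1 dot per gene with a T mean of at least 10 for 3 lists, each with a bar at its median. Dashed lines mark 2-fold. Igfbp4 (3.19) lies above 2-fold with 9 of the 16 naive and memory genes, Trib2 (1.90) just inside it, and Ramp3 (0.641) below 1.

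Markers of other cell types differed between the pools as well. The summed level of 10 myeloid markers was 790 and 189 in NK pools 1 and 2, and 302 and 34.4 in T pools 1 and 2. Lyz2, a lysozyme of macrophages and neutrophils, was the most abundant of the 10 in each library, at 510, 130, 175 and 16.7 in that order, and Mrc1, the macrophage mannose receptor, stood at 65.9, 10.3, 8.26 and 0.35. The myeloid sum was thus the higher in T pool 1, as Ramp3 was, and in NK pool 1, as Igfbp4 was, and their part in the pool ratios was not tested. The share of ribosomal RNA reads, given above, was also higher in T pool 1. With totals that leave out ribosomal RNA genes the T pool 2 to pool 1 ratios were 0.592 for Ramp3, 2.94 for Igfbp4 and 1.75 for Trib2.

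Endothelial cells and fibroblasts, which are known to express Ramp3 and Igfbp4 in other tissues, left no or few reads of most of their markers. Of 8 endothelial markers, Cdh5, Emcn, Tek, Vwf, Plvap and Egfl7 had 0 reads in all 4 libraries, Kdr stood at 0 to 2.13, and Pecam1, which leukocytes also express, at 146 and 248 in NK cells and 63.3 and 91.4 in T cells. The endothelial sum was 146 and 250 in NK cells and 65.0 and 91.4 in T cells. Of 8 fibroblast markers, Dcn, Lum and Pdgfra had 0 reads throughout, and the sum was 8.95 and 14.9 in NK cells and 1.10 and 3.54 in T cells. The NK sum was mostly Col1a2, at 8.95 and 13.8 in NK cells and 0 in both T libraries, which was called higher in NK cells (limma adjusted p = 0.0342). The 7 epithelial markers summed to 19.1 and 50.3 in NK cells and 20.4 and 30.8 in T cells, mostly Cdh1, with Krt7, Krt8, Krt18 and Krt19 at 0. The 7 B cell markers summed to at most 4.61 in any library, and the 7 dendritic cell markers to 28.9 and 37.6 in NK cells, mostly Itgax, and 12.7 and 0.71 in T cells.

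Most T cell identity genes also had low levels in the NK libraries. The NK mean was 1.71% of the T mean for Igfbp4 and 2.31% for Trib2. Over the 13 T cell identity genes it had a median of 1.71%, and it was 1.69% for Cd3e, a CD3 chain gene, and 2.05% for Trac, which encodes the constant part of the T cell receptor alpha chain. The range was wide, from 0 for Themis to 36.2% for Cd28. By pool, the NK level was 5.56% of the T level in pool 1 and 0.507% in pool 2 for Igfbp4, and 0 and 3.52% for Trib2. The median of the identity genes was 1.68% in pool 1 and 1.91% in pool 2. A median over 13 genes moves less than single genes with few reads, so nothing is drawn from its steadiness. Single identity genes moved as well, with Cd3e at 1.10% and 2.51% and Trac at 1.68% and 2.55% in pools 1 and 2. Cd3g had 35.4 and 14.9 in NK pools 1 and 2, and 133 and 240 in T pools 1 and 2. Whether T cell RNA in the NK libraries contributed to the Igfbp4 and Trib2 reads there was not tested.

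Of the partners of RAMP3, the receptor gene Calcrl was measured at low level in both cell types and the ligand genes hardly at all. Across all 12128 genes tested, 132 (1.09%) were called higher in T cells and 150 (1.24%) higher in NK cells (limma, Benjamini-Hochberg adjusted p under 0.05), or 482 and 517 with the pool as a replicate block, which leaves 1 residual degree of freedom. The NK identity gene Gzma had a limma adjusted p of 1.80e-193 with the block, which 1 degree of freedom alone cannot give. The block p-values thus rest mostly on a variance shared across genes and do not measure each gene's own spread between pools. The main fit shares variance as well, and its limma adjusted p for Gzma was 3.17e-07, which 2 residual degrees of freedom alone cannot give. Of 13 listed receptors, ligands and family members, 4 were tested and 0 were called by limma or by edgeR, against 1 higher in T cells and 0 higher in NK cells at an unadjusted p under 0.05 by either tool. That threshold was passed by 6.3% of all genes toward T cells and 6.51% toward NK cells by limma, and by 6.54% and 6.03% by edgeR. The block fit called 1, Vipr1, a receptor for vasoactive intestinal peptide that can also bind RAMP proteins. Vipr1 stood at 0 and 0.71 in NK cells and at 4.41 and 21.3 in T cells (limma adjusted p = 0.121, and 0.00665 with the replicate block). Ramp1, the family member that makes CGRP receptors with Calcrl, did not separate the cell types, at 34.2 and 27.7 in NK cells and 25.9 and 31.5 in T cells (log2 difference, T minus NK, -0.10, SE 0.42, limma adjusted p = 0.948). Per kilobase the T level of Ramp1 was 9.50, below the 87.4 of Ramp3. Calcrl had 0.55 (1 read) in T pool 1 and 11.7 in T pool 2, with 6.91 and 7.09 in NK pools 1 and 2, so the T pools enclosed the NK values. Crcp, a protein that couples CGRP receptors to signalling, stood at 7.32 and 9.22 in NK cells and 3.30 and 7.80 in T cells. Calcr, Ackr3, Adm2, Calca and Iapp had 0 reads in all libraries, and Ramp2, Adm, Calcb and Vipr2 were at 1.06 or less in every library. Calcrl and Vipr1 were picked with their values known.

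The receptors that RAMP3 joins signal mainly through Gs proteins and cyclic AMP. Of 16 genes of cyclic AMP signalling, 14 were tested and 0 were called by limma or by edgeR, against 2 higher in T cells and 1 higher in NK cells at an unadjusted p under 0.05 by limma, and 1 and 1 by edgeR (of all genes, 6.3% and 6.51% by limma, 6.54% and 6.03% by edgeR). The replicate block called 2 higher in T cells and 1 higher in NK cells. Gnas, the Gs alpha subunit, stood at 682 and 631 in NK cells and 242 and 322 in T cells (limma adjusted p = 0.0657, and 4.41e-04 with the block). Pde4b, a phosphodiesterase that breaks down cyclic AMP, stood at 39.5 and 214 in NK cells and at 208 and 313 in T cells (limma adjusted p = 0.35, and 3.41e-05 with the block). NK pool 2 and T pool 1 nearly met for Pde4b. Pde4d, the other gene that the block called higher in T cells, was picked with its values known. It stood at 2.03 and 29.8 in NK cells and at 49.0 and 105 in T cells (limma adjusted p = 0.147, and 1.77e-09 with the block). Prkar1a, a regulatory subunit of protein kinase A, had a log2 difference of -0.03 (SE 0.32, limma adjusted p = 0.976).

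Igfbp4 was nearly alone among the IGF binding proteins in these cells. Igfbp1, Igfbp2, Igfbp3, Igfbp5 and Igfbp6 had 0 reads in all 4 libraries, as did the ligand Igf2 and the proteases Pappa and Pappa2. Igfbp7, a related secreted protein picked once its values were known, had levels of 13.8 and 12.4 in T cells and 1.22 and 0 in NK cells (limma adjusted p = 0.0525, and 0.00179 with the replicate block). Per kilobase its T level was 10.8, against 72.8 for Igfbp4. Of 21 listed genes of the IGF axis, 8 were tested and 0 were called by limma or by edgeR, against 3 higher in T cells and 0 higher in NK cells at an unadjusted p under 0.05 by limma, and 3 and 1 by edgeR, beside the same shares of all genes (6.3% and 6.51%, 6.54% and 6.03%). The block fit called 2 higher in T cells, Igfbp7 and Igf1r.

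The IGF receptors and their adaptor were measured in both cell types. Igf1r, the signalling receptor for IGF-1, likewise picked with its values known, had levels of 11.0 and 9.22 in NK cells and 20.9 and 43.6 in T cells (limma adjusted p = 0.227, and 0.0324 with the block). Igf2r, which takes up IGF-2, stood at 50.4 and 63.8 in NK cells and 31.4 and 66.6 in T cells. Irs2, an adaptor of the insulin and IGF receptors, stood at 76.9 and 132 in NK cells and 132 and 176 in T cells (limma adjusted p = 0.555). Lrp6, a Wnt co-receptor that IGFBP4 can bind, stood at 25.2 and 25.9 in NK cells and 18.2 and 45.4 in T cells. Of the 5 genes of this list with a T mean of at least 10, Igf1r, Igf2r and Lrp6 were at least 2-fold higher in T pool 2, as Igfbp4 was, and 0 were at least 2-fold lower, against 11.8% and 9.63% of all genes.

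Neither Trib1 nor Trib3 was called between T cells and NK cells. Trib1 had 137 in T pool 1 and 34.0 in T pool 2, with 42.3 and 47.2 in the NK pools (limma adjusted p = 0.709). Its T pool 2 to pool 1 ratio was 0.248 (counting interval 0.194 to 0.315), opposite in direction to the 1.90 of Trib2. Trib3 was higher in pool 2 of both cell types, as Trib2 was, at 3.66 and 22.7 in NK cells and 4.96 and 20.9 in T cells (limma adjusted p = 0.969). Per kilobase, the T level was 30.2 for Trib2, 13.7 for Trib1 and 6.09 for Trib3.

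Of 16 listed family members, targets and partners of tribbles proteins all were tested and 0 were called by limma or by edgeR, against 1 higher in T cells and 0 higher in NK cells at an unadjusted p under 0.05 by limma, and 2 and 0 by edgeR, where all genes gave 6.3% and 6.51% by limma and 6.54% and 6.03% by edgeR. The block fit called 1, Foxo1, a transcription factor that holds T cells in a resting state. Foxo1 stood at 50.8 and 149 in NK cells and 213 and 390 in T cells (limma adjusted p = 0.123, and 3.74e-07 with the block), higher in pool 2 in both cell types, as Trib2 was. Cop1, the ubiquitin ligase that TRIB2 brings to its targets, stood at 15.5 and 18.1 in NK cells and 19.3 and 24.1 in T cells (log2 difference 0.35, SE 0.47, limma adjusted p = 0.81). Map2k1, which encodes the kinase MEK1, had a log2 difference of -0.03 (SE 0.42). Trib3, Cop1 and Cebpa were picked with their values known. Cebpa, the target best known from mouse leukaemia driven by TRIB2, stood at 5.29 and 3.90 in NK cells and 2.20 and 0 in T cells.

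**Figure D4:**
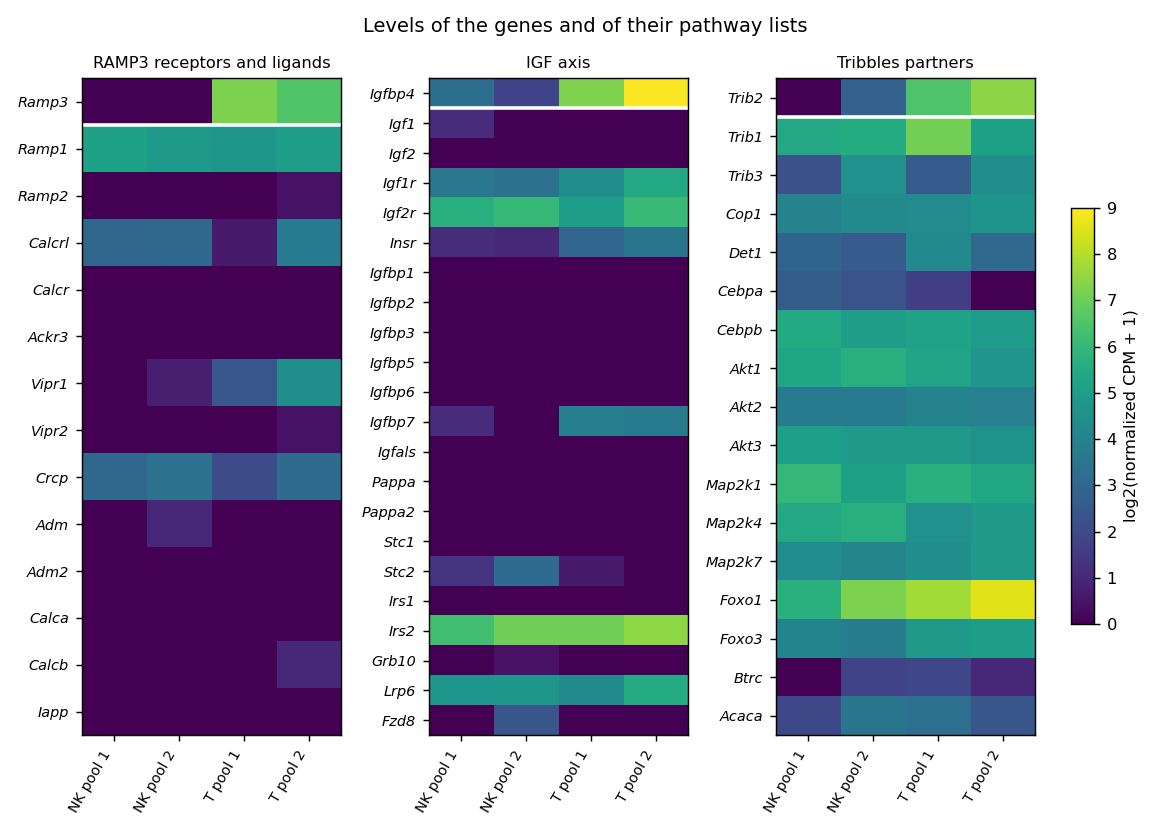
Levels as log2(normalized CPM + 1), shown by colour, in the 4 libraries (columns) for each of the 3 genes (top row of each panel) and for its pathway list (rows below the white line). The difference between cell types is larger in each top row than in any row below it, as the 3 genes were chosen on that difference. Below the line, Igfbp7 has the widest (log2 3.24), and the rows of most ligands and of Igfbp1, Igfbp2, Igfbp3, Igfbp5 and Igfbp6 are at 0.

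Of the naive and memory list, all 16 genes were tested against NK cells, and 7 were called higher in T cells and 1 higher in NK cells by limma, against 1.09% and 1.24% of all genes. With the replicate block the counts were 14 and 1, and by edgeR 9 and 1. Without any 1 of the 4 libraries limma called 0 genes in all, while edgeR still called 6 to 13 of the list. The 7 were Ccr7, Tcf7, Klf3, S1pr1, Il7r, Dapl1 and Actn1. Over the 16 genes the median T minus NK log2 difference was 2.33, against -0.02 over all genes tested. The activated and regulatory list gave much the same, with 14 genes tested, 7 called higher in T cells and 0 higher in NK cells by limma, and a median of 2.29. The difference from NK cells was thus not particular to the naive and memory list. Il7r had the smallest adjusted p of the naive and memory genes (log2 difference 4.48, SE 0.35, limma adjusted p = 1.56e-04). Txk, a Tec family kinase, was the gene called higher in NK cells, where it had 319 and 279 (99.1 and 92.8 in the T pools, adjusted p by limma = 0.0203).

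The genes most like each of the 3 over the 4 libraries were named by the root mean square difference of log2(level + 1) after each gene was centred on its mean, among 6332 other named protein-coding genes with a T mean of at least 10. For Ramp3 they were Themis (0.23), Cd4 (0.41), Cd6 (0.60), Cd8a (0.61) and Bcl11b (0.63), which are T lineage genes. Themis, a T cell signalling protein gene, likewise had 0 reads in NK cells, with 99.1 and 87.5 in T pools 1 and 2. For Igfbp4 they were St8sia6 (0.38), a sialyltransferase gene, Actn1 (0.42), which encodes an actin cross-linker, Dapl1 (0.46), Cd8b1 (0.53) and Ccr7 (0.65). Actn1 had the same pool pattern as Igfbp4, at 4.07 and 2.13 in NK cells and 71.0 and 208 in T cells. For Trib2 they were Rflnb (0.55), a filamin-binding protein gene, S1pr1 (0.84), Nrn1 (0.89), Cd3e (0.93) and Scg5 (0.93). Rflnb shared the low NK pool 1, at 0.81 and 6.38 in NK cells and 58.4 and 144 in T cells. The 3 genes were not among those named above for each other, but they ranked near the most alike end of the 6332 genes. Counted from the most alike, Igfbp4 ranked 18 and Trib2 ranked 25 for Ramp3. Ramp3 ranked 29 and Trib2 ranked 83 for Igfbp4, while Ramp3 ranked 37 and Igfbp4 ranked 65 for Trib2. The difference was 1.17 between Ramp3 and Igfbp4, 1.32 between Ramp3 and Trib2 and 1.53 between Igfbp4 and Trib2. The measure rests on 4 libraries and includes the contrast that chose the genes, so it is a description.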

How the data were processed

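RNA of sorted NK cells and T cells was sequenced, with 2 pools of mice per cell type. The authors deposited 1 table of normalized signal per gene and library, per the file headers. The submitters' processing notes name the build GRCm38.p6 and, without roles, STAR 2.7.0f, Bowtie2 2.3.4.1, limma and FastQC. No source used here states the counter, strand setting or normalization. Every deposited signal value was a whole multiple of the smallest value of its library within 0.001 reads (100% of values), and the scaling factors implied, 0.878 to 1.103, were close to TMM factors recomputed from the recovered reads. The signal was therefore read as counts per 1 M of TMM-scaled reads (normalized CPM), not corrected for gene length. Symbols turned into dates (27) were restored, and the highest row per symbol was kept. Rows without a symbol (0.02% to 0.021% of reads) were kept under their identifier.

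Genes with a mean of at least 1 were tested as log2(value + 1) with limma 3.58.1 (trend, 2 residual degrees of freedom, R 4.3.3), T minus NK, with Benjamini-Hochberg adjustment over all 12128 genes. The test was checked on simulated counts. Alternatives were edgeR 4.0.16 on the recovered reads (159 calls toward T cells, 172 toward NK cells), DESeq2 1.42.0 size factors, another pseudocount and filter, the replicate block and leaving out each library. The series' design text ties each replicate number to a pool of mice, so the numbers were taken to pair the samples, although no source says that NK and T cells of a number came from the same mice. The pool differences of the NK and T libraries correlated at 0.161 across genes. The fit without the block is the main one because no source gives the study's model. Floors are 3 reads, and intervals are exact 95% binomial ones. Named from the lists were all members called, or the 3 most abundant where fewer than 3 were called, and per gene the 5 most alike. Genes, lists and tests were chosen with earlier results of these data known. Coordinates are from GENCODE M21 (GRCm38).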

Additional observations from a re-analysis of the deposited data

How the results depend on the processing

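The pool ratios of the 3 genes held under other scalings. With DESeq2 size factors, or totals without ribosomal RNA genes, the T pool 2 to pool 1 ratio stayed between 0.592 and 0.641 for Ramp3, 2.94 and 3.19 for Igfbp4, and 1.75 and 1.90 for Trib2. The T minus NK log2 difference was 6.89 for Ramp3 and became 8.88 with a pseudocount of 0.25, because its NK level is 0, so that it is no bound. With the same change Trib2, at 0 in NK pool 1, went from 5.56 to 6.64 and Igfbp4 from 5.58 to 5.81. Leaving out each library gave 6.57 to 7.21 for Ramp3, 4.75 to 6.41 for Igfbp4 and 4.16 to 6.97 for Trib2, lowest without T replicate 1, T replicate 2 and NK replicate 1. The counts of calls moved more. With a pseudocount of 0.25 limma called 83 genes higher in T cells and 80 higher in NK cells, and 5 naive and memory genes. With the replicate block it called 482 and 517 genes, 1 RAMP3 partner, 3 cyclic AMP genes, 2 IGF axis genes, 1 tribbles partner and 15 naive and memory genes. Limma called 0 genes without any 1 of the libraries (336 to 774 higher in T cells and 341 to 984 higher in NK cells at an unadjusted p under 0.05), and so 0 of each list. EdgeR without each library, chosen after seeing the data, called 162 to 220 genes higher in T cells (204 without NK replicate 2) and 159 to 251 higher in NK cells (233 without T replicate 1). It then called 0 to 1 RAMP3 partners, 0 to 2 cyclic AMP genes, 0 to 1 IGF axis genes, 0 to 1 tribbles partners and 6 to 13 naive and memory genes. With a minimum mean of 0.1 the counts stayed within 1.5 times the main ones. NK reads of Igfbp4 (28) and Trib2 (17) limit how firmly their ratios are known.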
